A study of Homo sapiens with 6 samples.

Results

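The kinetochore is the protein machine that ties a chromosome's centromere to the spindle in mitosis. Its genes were selected by name, as symbols made of CENP and 1 letter together with 19 named genes of the outer kinetochore, the spindle checkpoint and the loading of CENP-A. Of 17687 measured genes, 36 met this rule, 18 of them CENP symbols. CENPJ, CENPP, CENPS and PMF1 were not analysed here. Each of the 36 genes had 1 probe set, so no choice between probe sets was needed, and no filter on low values was applied.

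Signals came from Affymetrix whole-transcript arrays hybridised with RNA of SH-SY5Y, a single human neuroblastoma line of sympathetic lineage. Per the labels, all cells received the differentiation agent atRA (all-trans retinoic acid) over 96 h. The group 15EN was treated with 15EN, a name the labels do not expand, and the group VC with vehicle. The series title names the compound eurycomanone from Eurycoma longifolia, and the treatment text, identical for both groups, gives a bioactive compound at 15 µM. Each group has 3 arrays, and the titles place replicates 1, 2 and 3 at passages 33, 34 and 35, whereas every description names passage 33. Nothing else says that the samples are separate cultures, so the p-values rest on array-to-array spread alone, and that may be only technical. The comparison asks which transcripts differ with the compound in cells that received atRA.

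A centromere is marked by nucleosomes that hold CENP-A in place of histone H3, and new CENP-A is brought in by its chaperone HJURP after the Mis18 complex has primed the site. On this chromatin sits the inner kinetochore, or CCAN (constitutive centromere-associated network), present through the whole cell cycle. The outer kinetochore, or KMN network, is built on it for mitosis from KNL1, the Mis12 complex and the Ndc80 complex, which grips microtubules. Unattached kinetochores recruit the spindle checkpoint proteins, which hold back the anaphase-promoting complex until every chromosome is attached. Transcripts of many of these genes peak in G2 and mitosis, and are low in cells that have left the cycle, as neurons do.

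Promoters of genes expressed in G2 and mitosis often hold CCAAT boxes, bound by the factor NF-Y, and a CHR (cell cycle genes homology region), bound by MuvB complexes with repressive partners in resting cells and with B-MYB and FOXM1 in cycling cells. Both were searched for in RefSeq promoters (GRCh38.p14, 250 bases before to 50 after the start site), as CCAAT and as TTTGAA or TTCGAA, each on both strands. No match of one overlapped a match of the other (0 cases). The stretches before the start site of 5 genes that fell and of MIS12, which rose, are printed below 5′ to 3′ on the gene's strand because they show how differently these matches lie, with matches that lie wholly within the stretch in capitals. They are at chr2:26785806-26786055 (CENPA, plus strand), chr2:168890431-168890680 (SPC25, minus strand), chr1:214602945-214603194 (CENPF, plus strand), chr2:110678064-110678313 (BUB1, minus strand), chr15:40160819-40161068 (BUB1B, plus strand) and chr17:5486124-5486373 (MIS12, plus strand).
CENPA: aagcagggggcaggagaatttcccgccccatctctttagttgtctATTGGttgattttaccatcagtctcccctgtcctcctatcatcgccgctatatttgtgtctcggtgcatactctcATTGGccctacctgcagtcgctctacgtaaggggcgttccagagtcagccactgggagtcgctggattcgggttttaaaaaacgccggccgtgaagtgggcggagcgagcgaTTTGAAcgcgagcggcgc
SPC25: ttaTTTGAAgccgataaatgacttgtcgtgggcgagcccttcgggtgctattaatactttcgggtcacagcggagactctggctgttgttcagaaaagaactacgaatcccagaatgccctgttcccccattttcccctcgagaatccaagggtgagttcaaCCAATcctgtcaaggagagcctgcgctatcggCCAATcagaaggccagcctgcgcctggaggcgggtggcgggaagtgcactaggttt
CENPF: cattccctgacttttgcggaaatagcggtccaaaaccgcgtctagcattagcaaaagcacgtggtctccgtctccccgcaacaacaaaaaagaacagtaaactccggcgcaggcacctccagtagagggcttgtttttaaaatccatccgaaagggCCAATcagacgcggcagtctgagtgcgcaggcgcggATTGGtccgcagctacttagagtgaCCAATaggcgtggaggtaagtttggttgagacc
BUB1: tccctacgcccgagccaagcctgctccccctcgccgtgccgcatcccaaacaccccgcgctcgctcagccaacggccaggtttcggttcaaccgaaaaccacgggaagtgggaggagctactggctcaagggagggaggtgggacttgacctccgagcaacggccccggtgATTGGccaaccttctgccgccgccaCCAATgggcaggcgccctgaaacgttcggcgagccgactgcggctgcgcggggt
BUB1B: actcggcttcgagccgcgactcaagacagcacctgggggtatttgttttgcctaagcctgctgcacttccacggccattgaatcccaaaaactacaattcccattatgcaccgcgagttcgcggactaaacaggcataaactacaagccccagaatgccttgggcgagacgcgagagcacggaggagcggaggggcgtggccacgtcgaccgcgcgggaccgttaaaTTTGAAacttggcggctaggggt
MIS12: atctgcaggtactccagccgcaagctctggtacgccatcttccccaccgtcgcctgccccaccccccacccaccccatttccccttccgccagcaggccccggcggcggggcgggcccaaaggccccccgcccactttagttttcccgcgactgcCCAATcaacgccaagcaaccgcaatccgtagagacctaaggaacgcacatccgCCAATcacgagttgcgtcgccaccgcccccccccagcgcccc

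The CENPA promoter holds CCAAT matches whose first bases lie 205 and 130 bases before the start site and a CHR match 18 bases before it. In SPC25 a CHR match lies 247 bases before the start site, and a second begins 3 bases before it, runs across it and is not in capitals. In BUB1 the CHR match begins 2 bases into the transcript, past the stretch shown. CENPF has 3 CCAAT matches in the stretch shown and its CHR match 41 bases into the transcript. BUB1B has a CHR match but no CCAAT match in the window, and MIS12 has CCAAT matches but no CHR match. Of the 29 genes with a promoter entry, 15 (51.7%) held a CHR match, against 13.4% of the 14250 promoters of measured genes and 16.6% of all 27305 promoters. A CCAAT match was held by 17 (58.6%), against 36.4% and 35.7%, and both by 11 (37.9%), against 5.52% and 6.58%. In 13 of the 15 genes a CHR match began within 50 bases of the start site, a position that was not compared with other promoters. Among the genes that fell, 7 of 10 held a CHR match, namely CENPA, SPC25, NUF2, NDC80, CENPF, BUB1B and BUB1. Among those that did not pass the test it was 8 of 17 (47.1%), and 0 of 2 among those that rose. The CCAAT matches were split the other way, with 5 of 10 genes that fell, 11 of 17 that did not pass and 1 of 2 that rose. Both motifs were held by 4 of 10, 7 of 17 and 0 of 2 genes, in the same order. A match is a description of letters and was not tested for binding. BUB3, CENPH, CENPL, CENPM, KNL1, MIS18A and TTK had no entry.

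All values are the deposited log2 signals, so a difference of 1 is a doubling, and differences are 15EN minus VC with the standard error of a limma fit over all genes. A gene passed at an adjusted p under 0.05. The arrays had similar medians over genes (7.60 to 7.71), and correlations between arrays were 0.990 to 0.992 within VC and 0.979 to 0.992 within 15EN, with 15EN replicate 3 the least like its group. The 4 hybridization controls, added in fixed amounts, were dimmer in 15EN by 0.72 to 0.93. Scaling the arrays to them added 0.87 to every difference and moved the median of all genes from 0.01 to 0.88. Directions below are therefore relative to the median gene of these arrays. Of the sympathetic neuroblastoma markers, HAND2, GATA2, GATA3, ISL1, PHOX2A, ELAVL4 and STMN2 were well above the range of the negative controls, while TH and CHGA were not. DBH was within that range on 2 15EN arrays, and CHGB on 1 array of each group.

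Relative to the median gene, the kinetochore genes were lower in 15EN. The median of the 36 differences was -0.50 on the deposited scale, against 0.01 for all genes. On the scale of the hybridization controls it was 0.37, against 0.88 for all genes. Of the 36 genes, 10 fell (27.8%), against 9.09% of all genes, and 3 rose (8.33%), against 12.3% of all genes. In all, 21.4% of genes passed in either direction. Of the called genes here 76.9% were lower, and of all called genes 42.5%. A negative difference was seen in 80.6% of the 36 genes and 48.8% of all genes. The arrays of the groups did not overlap in 16 genes that were lower in 15EN (44.4%, against 16.6% of all genes) and in 4 that were higher (11.1%, against 19.7%). An unadjusted p under 0.05 was reached by 21 of the 36 (58.3%, against 32.2% of all genes). The genes that fell were CENPA, CENPI, the Ndc80 complex genes NDC80, NUF2, SPC24 and SPC25, and CENPF, BUB1, BUB1B and CENPV, of which CENPF, BUB1 and CENPV turned slightly positive after scaling to the hybridization controls. The genes that rose were MIS12, NSL1 and MIS18A.

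**Figure D1:**
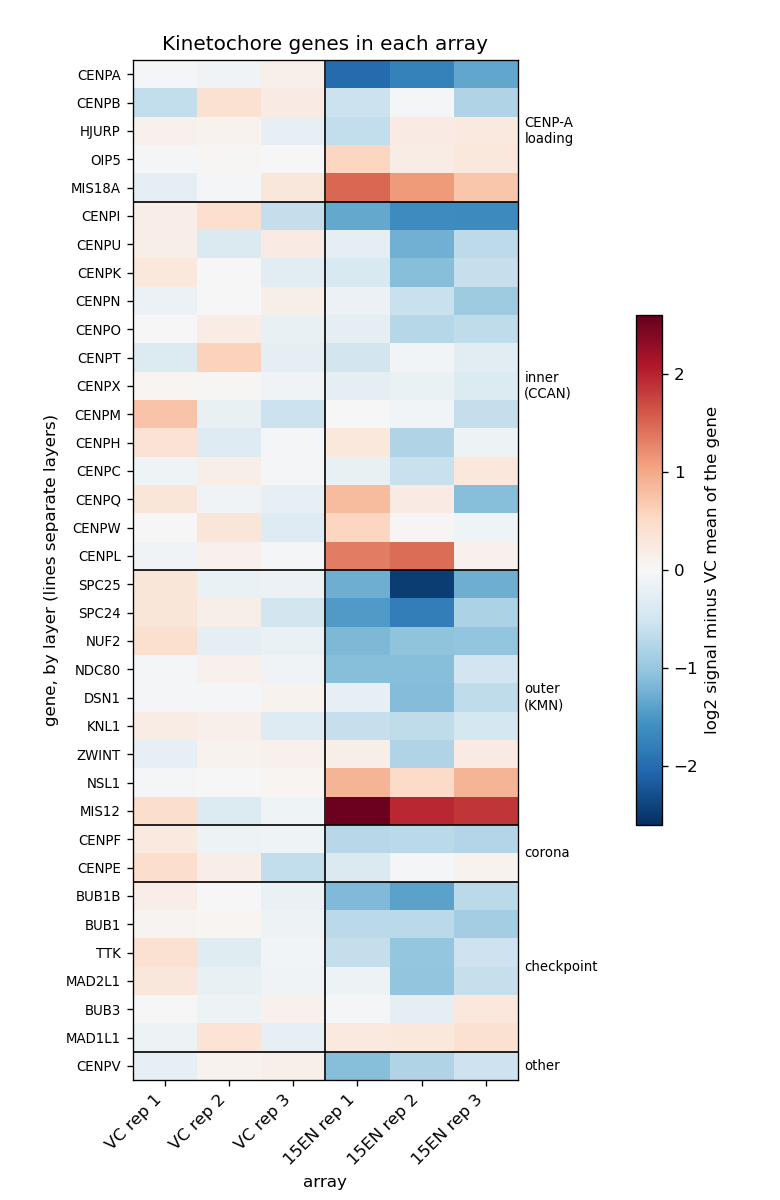
Log2 signal of each of the 36 genes (rows, by layer) in each array (columns), minus the gene's VC mean, from blue (lower) to red (higher), as deposited. The 15EN columns are mostly blue, with MIS12, NSL1, MIS18A and CENPL as red rows, and CENPL is near 0 in 15EN replicate 3. Scaling to the hybridization controls would add 0.87 to each difference and turn the median from -0.50 to 0.37. The median of all genes would go from 0.01 to 0.88.

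The median of the 36 genes relative to their VC means was -0.26, -0.69 and -0.54 in the 15EN arrays, in replicate order, and 0.07, 0.03 and -0.11 in those of VC. All 15EN arrays thus lay below all VC arrays in this median. In bulk RNA, fewer cells in G2 and mitosis and less RNA per such cell cannot be told apart. Markers of cycling cells moved with the groups. Of 6 such genes (MKI67, TOP2A, CCNB1, CCNB2, CDK1 and CCNA2), 5 fell (83.3%, against 9.09% of all genes) and 0 rose (against 12.3%). The median of their differences was -1.18. Their summed log2 signal was 64.2 to 65.6 in 15EN and 71.1 to 72.1 in VC, and on every array all 6 lay above the 90th percentile of the negative controls. Whichever array was left out, 5 still passed, but after scaling to the hybridization controls or the poly-A controls 0 of the 6 passed. Of all genes, 2.47% and 3.1% were lower under these scalings, and 68.7% and 10.6% higher. The part of the cycling cell markers in the result was not tested.

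The calls were sensitive to the scaling and to single arrays. After scaling to the hybridization controls, 3 of the 36 genes were lower (8.33%, against 2.47% of all genes) and 13 higher (36.1%, against 68.7%). The genes still lower were CENPA (-0.83), CENPI (-0.68) and SPC25 (-0.79). The share of higher genes among all calls went from 57.5% to 96.5%. After scaling to the 4 poly-A controls, which moved the median gene to 0.26, the counts were 3 lower (8.33%, against 3.1%) and 3 higher (8.33%, against 10.6%), and 77.4% of all calls were higher. Leaving out VC replicate 2 or VC replicate 3 lowered the count of genes that fell to 6, while calls of lower genes among all genes went from 1608 to 970 and 1062. Without VC replicate 1 or VC replicate 2 the count that rose was 1. Calls of higher genes among all genes, 2179 in the full fit, were 1424, 1301 and 1378 without VC replicates 1, 2 and 3.

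**Figure D2:**
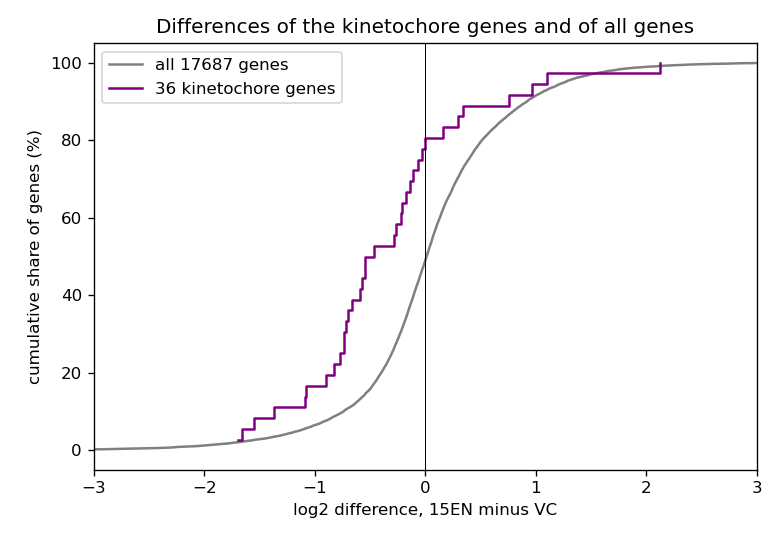
Cumulative share of genes (vertical axis, percent) against the log2 difference, 15EN minus VC (horizontal axis), as deposited, for the 36 kinetochore genes and all 17687 genes. The kinetochore curve lies to the left over most of its range, with 80.6% of these genes below 0 against 48.8% of all genes, and crosses to the right-hand tail through MIS12 at 2.13.

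**Figure D3:**
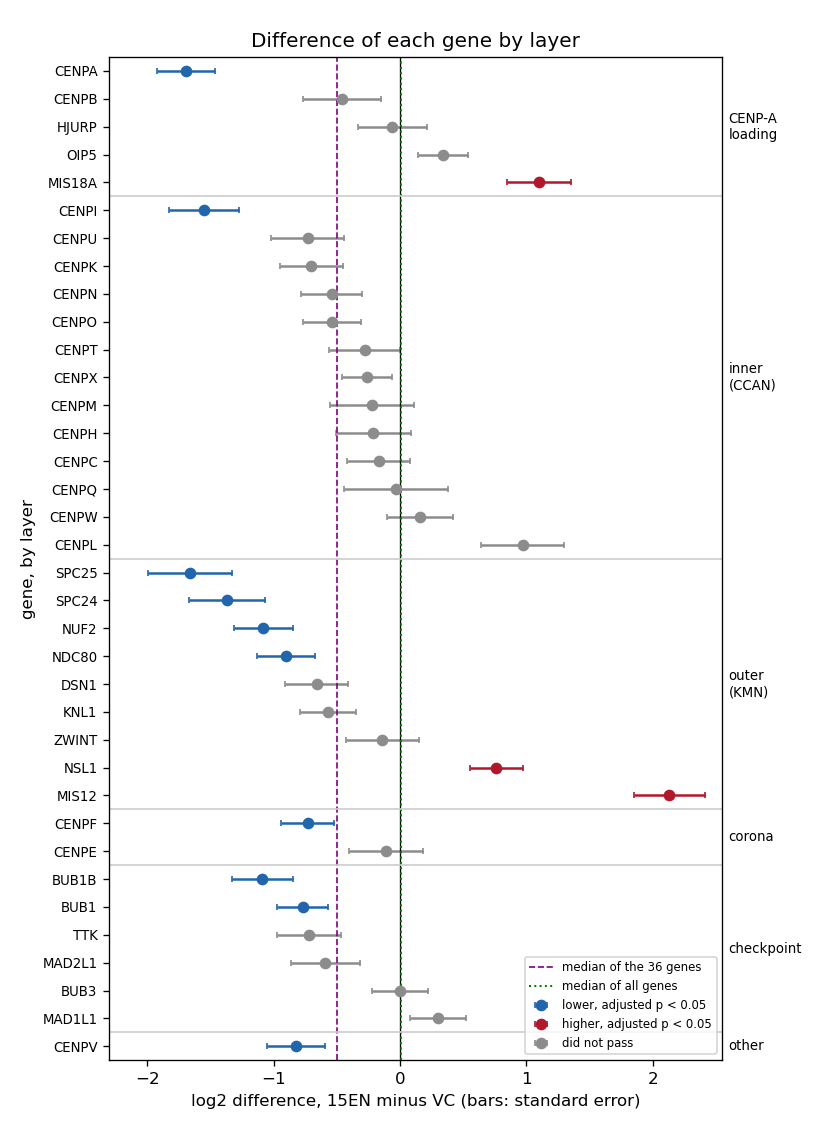
Log2 difference of each gene by layer, 15EN minus VC, as deposited, with the standard error as bar, blue for genes that fell, red for genes that rose and grey for those that did not pass. All 4 Ndc80 complex genes lie left of 0 and MIS12 and NSL1 lie right of it, but after scaling to the hybridization controls SPC25 alone of the 4 still passed and NDC80 was at -0.03.

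In centromeric chromatin and CENP-A loading, CENPA fell and MIS18A rose, while the other 3 genes did not pass. CENPA, the histone variant that marks the centromere, had log2 signals of 7.18, 7.43 and 7.83 in 15EN and of 9.13, 9.09 and 9.31 in VC, here and below in the order of replicates 1, 2 and 3. The groups lay over 1 unit apart, and 15EN replicate 1 was within the range of the negative controls, that is below their 90th percentile on that array. CENPA fell by 1.69 ± 0.23, or 3.24-fold (adjusted p = 0.000854). Its call was kept in all 20 alternative settings. MIS18A, a subunit of the complex that primes centromeres for new CENP-A, had signals of 10.72, 10.33 and 9.96 in 15EN and 8.99, 9.18 and 9.53 in VC. The groups did not overlap, and the same-numbered difference was smallest at passage 35 (0.44). MIS18A rose by 1.10 ± 0.25, or 2.15-fold (adjusted p = 0.0117), but dropping VC replicate 1 (adjusted p = 0.0566) or VC replicate 2 (adjusted p = 0.0543) ended the call.

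The CENP-A chaperone gene HJURP had signals of 13.55, 14.41 and 14.44 in 15EN and 14.31, 14.29 and 13.98 in VC, so that the groups overlapped. Its difference was -0.06 ± 0.27 (95% interval -0.67 to 0.54, adjusted p = 0.916). OIP5, the partner of MIS18A in the Mis18 complex, had signals of 8.08, 7.73 and 7.81 in 15EN and 7.49, 7.57 and 7.54 in VC. All 15EN values were the higher ones, but the difference of 0.34 ± 0.20 did not pass (95% interval -0.11 to 0.79, adjusted p = 0.295). In OIP5, VC replicates 1 and 3 were within the range of the negative controls. CENPB, which binds a sequence box in centromeric satellite DNA, was dim, within the negative controls' range, on all 6 arrays and differed by -0.46 ± 0.31 (adjusted p = 0.359). Of the 5 genes of this layer, 1 fell (20%, against 9.09% of all genes) and 1 rose (20%, against 12.3%). Their median difference was -0.06.

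In the inner kinetochore, 1 of 13 measured genes fell (7.69%, near the 9.09% of all genes) and 0 rose (against 12.3%). CENPI, of the CENP-H/I/K group that helps recruit new CENP-A, had signals of 8.54, 8.25 and 8.22 in 15EN and 10.06, 10.32 and 9.26 in VC. The 15EN arrays agreed closely, while VC replicate 3 was the lowest of its group. CENPI fell by 1.55 ± 0.28, or 2.92-fold (adjusted p = 0.00391). The median difference of the layer was -0.26, and 11 of 13 differences were negative as deposited. After scaling to the hybridization controls 4 of the 13 genes were higher (30.8%, against 68.7% of all genes). CENPI alone of the 13 was lower (7.69%, against 2.47%).

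CENPL, which with CENP-N contacts the CENP-A nucleosome, went the other way from CENPI without passing. Its signals were 10.40, 10.52 and 9.19 in 15EN and 8.98, 9.19 and 9.03 in VC, so 15EN replicates 1 and 2 were high and replicate 3 lay among the VC arrays. The difference was 0.97 ± 0.33 (95% interval 0.23 to 1.70, adjusted p = 0.0625). Without 15EN replicate 3 it was 1.39 and passed (adjusted p = 0.000498), as it did in the fit with replicate blocks (adjusted p = 0.0314). CENPU, of the group that docks the kinase PLK1, differed by -0.73 ± 0.29 (adjusted p = 0.102), and a fit with replicate blocks gave a pass (adjusted p = 0.0388).

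CENPK, a partner of CENP-H and CENP-I, differed by -0.70 ± 0.25 (adjusted p = 0.0798) and CENPO, of the same group as CENPU, by -0.54 ± 0.23 (adjusted p = 0.123), and in both the groups did not overlap. CENPN differed by -0.54 ± 0.24 (adjusted p = 0.152), with 15EN replicate 1 at 10.66 beside 10.65 in VC replicate 1. The remaining 7 genes had differences from -0.28 (CENPT) to 0.16 (CENPW) and adjusted p from 0.426 to 0.978. Among them CENPC, the scaffold that links CENP-A to the outer kinetochore, differed by -0.17 ± 0.25 (95% interval -0.73 to 0.39). CENPH differed by -0.21 ± 0.30 and CENPM by -0.22 ± 0.33. On 15EN replicate 3 and VC replicates 2 and 3, CENPM was within the range of the negative controls. CENPQ was the most variable in 15EN, at 7.62, 7.01 and 5.70, and differed by -0.03 ± 0.41. CENPT, CENPW and CENPX, which are histone-fold proteins, were no brighter than the negative controls' range on all 6 arrays, so little can be read from their values, including that of -0.26 ± 0.20 for CENPX.

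In the outer kinetochore, the 4 genes of the Ndc80 complex were lower and 2 of 3 measured genes of the Mis12 complex higher on the deposited scale. Of the 4, SPC25 alone still passed after scaling to the hybridization controls or the poly-A controls. With the hybridization controls SPC24 was at -0.50 (adjusted p = 0.165), NUF2 at -0.21 (adjusted p = 0.478) and NDC80 at -0.03 (adjusted p = 0.917). MIS12 passed under both scalings, and NSL1 under the former but not the latter. SPC25, which with SPC24 anchors the Ndc80 complex to the rest of the kinetochore, had signals of 8.08, 6.88 and 8.07 in 15EN and 9.66, 9.17 and 9.18 in VC. The groups lay over 1 unit apart, and 15EN replicate 2 was within the range of the negative controls. SPC25 fell by 1.66 ± 0.33, or 3.17-fold (adjusted p = 0.00558). SPC24 had signals of 10.22, 9.91 and 10.87 in 15EN and 12.01, 11.86 and 11.23 in VC. The replicates at passage 35 came closest to each other, with a same-numbered difference of -0.37. SPC24 fell by 1.37 ± 0.30, or 2.58-fold (adjusted p = 0.00915).

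NUF2, one of the pair of microtubule-binding subunits, had signals of 9.70, 9.83 and 9.85 in 15EN and 11.28, 10.64 and 10.69 in VC. The 15EN arrays agreed closely and all lay below VC. NUF2 fell by 1.08 ± 0.23, or 2.11-fold (adjusted p = 0.00877). NDC80, its partner, had signals of 9.98, 9.99 and 10.59 in 15EN and 11.06, 11.21 and 11.00 in VC. Again 15EN replicate 3 was the closest to VC. NDC80 fell by 0.90 ± 0.23, or 1.87-fold (adjusted p = 0.0202), but did not pass without 15EN replicate 1 or 2 or any VC replicate (adjusted p = 0.0578 to 0.0882). Over the 4 genes, the median relative to VC was -1.22, -1.44 and -0.93 for the 15EN arrays in replicate order.

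MIS12, the subunit that gives the Mis12 complex its name and links the inner kinetochore to KNL1 and Ndc80, had signals of 12.91, 12.34 and 12.23 in 15EN and 10.83, 10.02 and 10.25 in VC. All 15EN values were over 1 unit above all VC values. MIS12 rose by 2.13 ± 0.28, or 4.37-fold (adjusted p = 0.000693), the largest difference of the 36 genes in either direction, and its call was kept in all 20 alternative settings. NSL1, a second subunit, had signals of 12.70, 12.32 and 12.70 in 15EN and 11.76, 11.81 and 11.88 in VC. The groups did not overlap, and 15EN replicate 2 was the closest to VC. NSL1 rose by 0.76 ± 0.21, or 1.69-fold (adjusted p = 0.0265), and did not pass without 15EN replicate 1 or any VC replicate (adjusted p = 0.0746 to 0.0928), after quantile normalization (adjusted p = 0.0555), after scaling to the poly-A controls (adjusted p = 0.0986) or after removal of a brightness trend (adjusted p = 0.0502).

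DSN1, a further subunit of the Mis12 complex, had signals of 9.67, 8.76 and 9.23 in 15EN and 9.82, 9.85 and 9.98 in VC. All 15EN values were below VC, opposite to MIS12 and NSL1, and the difference of -0.66 ± 0.25 did not pass (adjusted p = 0.0949). Without 15EN replicate 1 it was -0.89 and passed (adjusted p = 0.042). KNL1, the scaffold for the checkpoint proteins BUB1 and BUBR1, differed by -0.57 ± 0.22 (adjusted p = 0.0983) with groups that did not overlap. ZWINT, which binds KNL1, differed by -0.14 ± 0.29 (95% interval -0.78 to 0.50, adjusted p = 0.807). Of the 9 genes of this layer, 4 fell (44.4%, against 9.09% of all genes) and 2 rose (22.2%, against 12.3%). The median difference was -0.66 as deposited.

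**Figure D4:**
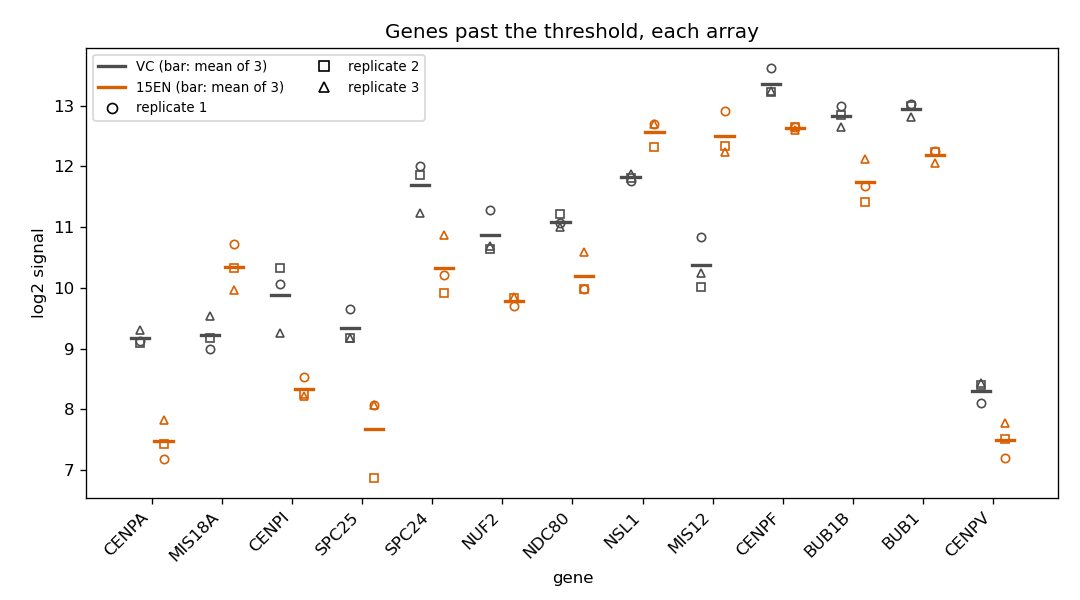
Log2 signal (vertical axis) in each array for the 13 genes past the threshold, with the marker shape giving the replicate number and the bar the group mean. In each gene the arrays of the groups do not overlap, and 15EN replicate 3 (triangle) is the 15EN array nearest to VC in CENPA, MIS18A, SPC24, NUF2, NDC80, MIS12, BUB1B and CENPV.

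Of the corona proteins, which fill the outermost zone of unattached kinetochores, CENPF had signals of 12.64, 12.65 and 12.60 in 15EN and 13.61, 13.23 and 13.24 in VC. The 15EN arrays were nearly equal and all below VC. CENPF, which also binds dynein regulators, fell by 0.73 ± 0.21, or 1.66-fold (adjusted p = 0.0297), but its difference was 0.14 after scaling to the hybridization controls, and it did not pass without 15EN replicate 1 or 2 or any VC replicate (adjusted p = 0.0692 to 0.121). CENPE, a kinesin that moves chromosomes to the spindle equator, had signals of 10.78, 11.11 and 11.25 in 15EN and 11.60, 11.33 and 10.52 in VC. The groups overlapped, with a difference of -0.11 ± 0.29 (95% interval -0.76 to 0.54, adjusted p = 0.86).

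In the spindle checkpoint, 2 of 6 genes fell as deposited (33.3%, against 9.09% of all genes) and 0 rose (against 12.3%). After scaling to the hybridization controls 0 were lower (against 2.47% of all genes) and 2 higher (33.3%, against 68.7%). BUB1B, which encodes BUBR1, the checkpoint protein that binds and blocks CDC20, had signals of 11.67, 11.42 and 12.12 in 15EN and 12.99, 12.84 and 12.64 in VC. The groups did not overlap, and the replicates at passage 35 were closest. BUB1B fell by 1.09 ± 0.24, or 2.12-fold (adjusted p = 0.00958), and its difference after scaling to the hybridization controls was -0.22. BUB1, the kinase that marks kinetochores for the other checkpoint proteins, had signals of 12.25, 12.24 and 12.05 in 15EN and 13.02, 13.00 and 12.81 in VC. The same-numbered differences were nearly alike. BUB1 fell by 0.77 ± 0.20, or 1.70-fold (adjusted p = 0.0212), but its difference was 0.10 after that scaling, and it did not pass without 15EN replicate 1 (adjusted p = 0.0506) or VC replicates 1, 2 or 3 (adjusted p = 0.0776, 0.0862 and 0.051).

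TTK, also called MPS1, the kinase that starts checkpoint signalling, had signals of 11.63, 11.25 and 11.71 in 15EN and 12.64, 11.93 and 12.17 in VC. All 15EN arrays were below all VC arrays. The difference of -0.72 ± 0.25 did not pass (adjusted p = 0.0658). It passed without 15EN replicate 3 (adjusted p = 0.0327), in the fit with replicate blocks (adjusted p = 0.0426), on quantile-normalized arrays (adjusted p = 0.0424) and once a brightness trend was removed (adjusted p = 0.039), while its difference was 0.15 after scaling to the hybridization controls. MAD2L1, which encodes the MAD2 protein that sequesters CDC20, differed by -0.59 ± 0.27 (adjusted p = 0.156), with same-numbered differences that were all negative. BUB3, which carries BUB1 and BUBR1 to KNL1, was at 13.33 ± 0.26 in 15EN and 13.33 ± 0.12 in VC (SD, n = 3; 95% interval of the difference -0.49 to 0.48). MAD1L1, the gene of MAD1, which holds MAD2 at the kinetochore, was dim on all 6 arrays and differed by 0.30 ± 0.22 (adjusted p = 0.405).

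CENPV carries a CENP symbol but is not a structural part of the kinetochore layers above. Its signals were 7.20, 7.52 and 7.78 in 15EN and 8.10, 8.41 and 8.44 in VC. The groups did not overlap, and 15EN replicate 1 was within the range of the negative controls. CENPV fell by 0.82 ± 0.23, or 1.76-fold (adjusted p = 0.0278), but its difference was 0.05 after scaling to the hybridization controls. The call was lost on leaving out any array but 15EN replicate 3 or VC replicate 1 (adjusted p = 0.0701 to 0.109).

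Beyond the kinetochore itself, 68 measured genes were read from lists, 42 of proteins that act with the kinetochore, 20 of transcription regulators and 6 of cycling cell markers. Of the 42 genes, 5 fell (11.9%, against 9.09% of all genes) and 5 rose (11.9%, against 12.3%), shares near those of all genes. After scaling to the hybridization controls 0 of them were lower (against 2.47% of all genes) and 25 higher (59.5%, against 68.7%). Over all 68 genes 14 fell, 9 of them regulators or cycling cell markers, while 9.09% of all genes fell. Of the 68, 9 rose, while 12.3% of all genes rose, and the median difference was -0.14. The count of the 68 that rose was 5 without 15EN replicate 1, VC replicate 1 or VC replicate 3 and 4 when VC replicate 2 was dropped.

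In the chromosomal passenger complex, which corrects faulty attachments, and the guards of cohesion, 2 of 9 genes fell and 0 rose as deposited. The share that fell was 22.2%, against 9.09% of all genes, while 12.3% of all genes rose. After scaling to the hybridization controls 0 were lower (against 2.47% of all genes) and 2 higher (22.2%, against 68.7%). The kinase gene AURKB fell by 1.18 ± 0.22 (adjusted p = 0.00386), to a level within the range of the negative controls on all 15EN arrays. INCENP, the scaffold of the complex, fell by 1.02 ± 0.27 (adjusted p = 0.0233) but did not pass without VC replicates 1, 2 or 3 (adjusted p = 0.0793, 0.0852 and 0.0682). With any of these left out the list's count was 1. Of the Ska and RZZ complexes, which stabilise attachments and carry dynein and MAD1, ZWILCH rose by 0.94 ± 0.26 (adjusted p = 0.0263), 1 of 7 genes (14.3%, near the 12.3% of all genes). It did not pass without 15EN replicate 1 or any VC replicate (adjusted p = 0.058 to 0.113). Of the 7 genes 0 fell (against 9.09% of all genes). After scaling to the hybridization controls 6 of the 7 were higher (85.7%, against 68.7% of all genes) and 0 lower (against 2.47%). SKA2 differed by -0.55 ± 0.28 (adjusted p = 0.205), and passed without 15EN replicate 3 (-0.83, adjusted p = 0.0167). The CCAN gene ITGB3BP, which encodes CENP-R, differed by -0.05 ± 0.26 (adjusted p = 0.924). RBBP4, a histone chaperone that works with Mis18, differed by -0.70 ± 0.26 (adjusted p = 0.0825) and a fit with replicate blocks gave a pass (adjusted p = 0.0394).

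The anaphase-promoting complex, the target of the checkpoint, and its regulators had 4 of 23 genes higher (17.4%, against 12.3% of all genes) and 3 lower (13.0%, against 9.09%). After scaling to the hybridization controls 15 were higher (65.2%, against 68.7%) and 0 lower (against 2.47%). MAD2L1BP, also called p31comet, which silences the checkpoint by capping MAD2, rose by 1.19 ± 0.22 (adjusted p = 0.00404). Its signals were 11.32, 11.45 and 11.05 in 15EN and 10.12, 9.87 and 10.28 in VC. The subunit genes ANAPC7 (1.29 ± 0.25, adjusted p = 0.00488) and CDC23 (1.06 ± 0.20, adjusted p = 0.00437) rose, and FBXO5, an inhibitor of the complex, fell by 1.08 ± 0.24 (adjusted p = 0.00958). Without VC replicate 1 or VC replicate 3 the count that fell was 1, and it was 2 when 15EN replicate 1, 15EN replicate 2 or VC replicate 2 was dropped.

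Among transcription regulators of G2/M genes, 4 of 20 fell (20%, against 9.09% of all genes) and 4 rose (20%, against 12.3%; 5 with the replicate block). After scaling to the hybridization controls 3 were lower (15.0%, against 2.47%) and 11 higher (55.0%, against 68.7%). FOXM1, which drives late cell cycle genes together with the MuvB core, had signals of 10.52, 10.40 and 10.90 in 15EN and 12.91, 12.88 and 12.76 in VC. The groups lay over 1 unit apart. FOXM1 fell by 2.25 ± 0.22 (adjusted p = 0.000224), and by 1.38 after scaling to the hybridization controls. MYBL2, which encodes B-MYB, fell by 1.77 ± 0.26 (adjusted p = 0.00122), and TFDP1, the dimer partner of E2F factors, by 1.98 ± 0.30 (adjusted p = 0.00138). RBL1 also fell (-1.02 ± 0.24, adjusted p = 0.0129). CDKN1A, counted in this list though it encodes the cell cycle inhibitor p21, rose by 2.85 ± 0.53 (adjusted p = 0.00419), from 10.67, 12.83 and 12.87 in VC to 14.42, 15.51 and 14.98 in 15EN. VC replicate 1 was far below the other VC arrays. Also higher were RB1 (0.94 ± 0.21, adjusted p = 0.011), NFYB (0.81 ± 0.21, adjusted p = 0.0213) and LIN37 (1.66 ± 0.50, adjusted p = 0.0393). LIN37 was at 8.16 in 15EN replicate 3, beside 8.01 in VC replicate 3. The count of regulators that rose was 2 when 15EN replicate 1, 15EN replicate 2, VC replicate 1 or VC replicate 3 was dropped, 1 when VC replicate 2 was, and 6 when 15EN replicate 3 was. Among the cycling cell markers, MKI67 fell by 1.21 ± 0.22 (adjusted p = 0.00339), TOP2A by 1.37 ± 0.21 (adjusted p = 0.00174), CDK1 by 1.15 ± 0.21 (adjusted p = 0.00341) and CCNB1 by 1.12 ± 0.21 (adjusted p = 0.00452). Their differences after scaling to the hybridization controls were -0.34, -0.50, -0.29 and -0.25, none of which passed. After scaling to the poly-A controls 0 of the 6 markers passed, while 3.1% of all genes were lower and 10.6% higher.

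Marker lists of cell states were read on the deposited scale beside these genes. Of all genes, 9.09% were lower and 12.3% higher as deposited, and 2.47% and 68.7% after scaling to the hybridization controls. Lower as deposited were 54.5% of the sympathetic, 27.3% of the substrate-adherent, 40% of the fibroblast and 0% of the glial markers. Of the substrate-adherent markers 36.4% were higher. Sympathetic neuroblastoma markers had 6 of 11 lower (7 with the replicate block) and 0 higher, with summed log2 signals of 113.5 to 114.7 in 15EN and 122.2 to 124.8 in VC. Dropping the first array of either group left 3, and after scaling to the hybridization controls 2 were lower and 3 higher. Substrate-adherent neuroblastoma markers had 3 of 11 lower and 4 higher (sums of 123.8 to 129.3 in 15EN and 118.5 to 122.5 in VC; 2 lower on dropping any array but 15EN replicate 3). With the hybridization controls 0 of these were lower and 7 higher (63.6%, near the 68.7% of all genes). Fibroblast and matrix markers had 4 of 10 lower (6 with the replicate block) and 0 higher (sums of 95.9 to 104.4 in 15EN and 107.0 to 108.0 in VC). That count was 2 without 15EN replicate 1, VC replicate 2 or VC replicate 3, and after scaling to the hybridization controls 1 was lower and 2 higher. Schwann and glial markers had 0 of 7 called by limma in either direction, with 1 at an unadjusted p under 0.05 and 6 of 7 within the range of the negative controls on all arrays. With the hybridization controls 5 of the 7 were higher (71.4%, near the 68.7% of all genes). The part of these cell states in the kinetochore result was not tested.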

How the data were processed

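The values analysed are log2 signals per probe set that the authors deposited, made with the Transcriptome Analysis Console per the submitters' processing notes. Its version, the summarization, the normalization and the build are items not given in the sources used here, and the log2 scale was judged from the values (2.2 to 18.8). Of 24351 probe sets, 2903 are controls, and 17709 carry 1 gene symbol in the platform annotation, 0 several, and 3739 are unnamed here. The brightest probe set of a gene was kept, which left 17687 genes. No dim filter was applied, and the range of the negative controls ends at the 90th percentile of 612 such probe sets (7.41 to 7.99 per array).

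limma 3.58.1 under R 4.3.3 compared the groups with no other term in the model, and its two-sided p-values were adjusted over all genes by Benjamini-Hochberg. The procedure was tested on simulated data. Same-numbered arrays share a passage in the titles, and their deviations from group means correlated at 0.229, 0.162 and 0.133, against -0.138 to -0.0165 for other pairs. The numbers were thus taken to pair the samples, and a fit with the replicate block was added to the settings.

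The results were recomputed with quantile normalization, centring on medians, scaling to 4 hybridization controls, removal of a brightness trend, leaving out dim genes, single arrays or same-numbered pairs of arrays, array weights, mean probe sets, a trended robust prior and no moderation. Scaling to 4 poly-A controls was chosen after seeing the data. The genes and lists were chosen with earlier results of these data known. Every selected gene is reported, with array values for those past the threshold and the nearest others. Companion lists are named by up to 4 genes of smallest p past the threshold, or the 2 of smallest p where under 2 passed. FOXM1, MYBL2, CDKN1A and MKI67 are always named, and so is every transcription regulator past the threshold. Symbols follow the platform annotation, and promoters come from RefSeq. The number of arrays limits the precision.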

Additional observations from a re-analysis of the deposited data

How the results depend on the processing

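Scaling to the hybridization controls turned the sign of 22 of the 36 differences, and scaling to the poly-A controls that of 8. These scalings added 0.87 and 0.25 to every difference, so the order of the genes was kept. The median difference of the 36 genes was 0.37 with the hybridization controls, against 0.88 for all genes. With the poly-A controls it was -0.25, against 0.26 for all genes. On both scales the 36 genes thus stayed below the median gene, as they did on the deposited scale. Scaled to the hybridization controls, calls were 12150 higher and 437 lower over all genes, 13 and 3 of the 36 genes, and 36 and 3 of the 68 others. By layer the higher counts moved to 3 for CENP-A loading, 4 for inner kinetochore, 1 for corona and 2 for checkpoint. The lower counts moved to 1 for outer kinetochore, 0 for corona, 0 for checkpoint and 0 for CENPV. Scaled to the poly-A controls, calls were 1880 higher and 549 lower over all genes, 3 and 3 of the 36 genes, and 8 and 3 of the 68 others. By layer the higher counts moved to 1 for inner kinetochore and 1 for outer kinetochore. The lower counts moved to 1 for outer kinetochore, 0 for corona, 0 for checkpoint and 0 for CENPV. Without moderation of the variances, calls were 789 higher and 637 lower over all genes, 1 and 2 of the 36 genes, and 3 and 7 of the 68 others. By layer the higher counts moved to 0 for CENP-A loading and 1 for outer kinetochore. The lower counts moved to 0 for inner kinetochore, 0 for outer kinetochore, 0 for corona, 1 for checkpoint and 0 for CENPV. With the replicate block the 36 genes had 4 higher and 12 lower calls, the inner kinetochore 1 higher and 2 lower, through CENPL, CENPU and TTK, and no other call of the 36 genes changed. The inner kinetochore also had 1 higher call with array weights and without dim genes. The outer kinetochore had 1 higher call after quantile normalization and after removal of a brightness trend. Leaving out 1 array, or both arrays of a replicate number, gave ranges of calls of 526 to 3227 for all genes higher, 495 to 2240 for all genes lower, 1 to 4 for the 36 genes higher, 1 to 11 for the 36 genes lower, 1 to 11 for the 68 others higher, 5 to 16 for the 68 others lower, 0 to 1 for CENP-A loading higher, 0 to 1 for inner kinetochore higher, 0 to 1 for inner kinetochore lower, 1 to 2 for outer kinetochore higher, 0 to 5 for outer kinetochore lower, 0 to 1 for corona lower, 0 to 3 for checkpoint lower and 0 to 1 for CENPV lower. No moderation and the loss of both arrays of a number leave fewer degrees of freedom. Differences that turned positive with the hybridization controls were CENPB 0.41, HJURP 0.81, CENPU 0.14, CENPK 0.17, CENPN 0.32, CENPO 0.33, CENPT 0.59, CENPX 0.61, CENPM 0.64, CENPH 0.66, CENPC 0.70, CENPQ 0.84, DSN1 0.21, KNL1 0.30, ZWINT 0.73, CENPF 0.14, CENPE 0.76, BUB1 0.10, TTK 0.15, MAD2L1 0.28, BUB3 0.86, CENPV 0.05, SKA2 0.31, RBBP4 0.17 and ITGB3BP 0.82. With the poly-A controls they were HJURP 0.19, CENPM 0.02, CENPH 0.04, CENPC 0.08, CENPQ 0.22, ZWINT 0.11, CENPE 0.14, BUB3 0.24 and ITGB3BP 0.20, and with array weights CENPQ 0.39 and ITGB3BP 0.02. Leaving out arrays turned the sign of HJURP (-0.32 to 0.29), CENPT (-0.46 to 0.01), CENPM (-0.50 to 0.15), CENPH (-0.46 to 0.08), CENPC (-0.41 to 0.12), CENPQ (-0.45 to 0.51), CENPW (-0.04 to 0.38), ZWINT (-0.39 to 0.24), CENPE (-0.52 to 0.25), BUB3 (-0.14 to 0.11) and ITGB3BP (-0.25 to 0.20), none of which passed the test in the full data. The cause of these changes was not tested. Signals near the negative controls limit CENPB, CENPQ, CENPT, CENPW, CENPX and MAD1L1, and on some arrays CENPA, CENPM, CENPV, OIP5 and SPC25. The 3 arrays a group limit every interval.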
